A study of Mus musculus with 6 samples.

Results

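Serum amyloid A proteins are small apolipoproteins whose genes lie side by side in the genome, and the 3 mouse genes Saa1, Saa2 and Saa3 were followed here in the distal colon. The 3 genes were taken by symbol from the 20533 genes with a value in each of 6 RNA-seq libraries, and all 3 were found and passed the filter on low values. They were chosen by their normalised read counts and fold changes in these same libraries, so their own levels and fold changes are given as a description, with no test. The libraries were made from wild-type C57BL/6 male mice aged 7 weeks. Mice had received 2% dextran sulphate sodium (DSS) plus montmorillonite powder, 2% DSS, or water, each for 7 days, with 2 libraries in each group. DSS is a sugar polymer that damages the lining of the colon and brings on colitis, and montmorillonite is an adsorbent clay mineral. Neither dose nor route of montmorillonite is given in the sources used here. No group received the clay without DSS, so no value below separates the clay from the clay together with DSS. The labels do not tie each library to a mouse of its own, so the spread within a group may be technical.

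Saa1 and Saa2 encode the acute-phase forms, which the liver secretes in large amounts during infection or injury and which travel on high-density lipoprotein. Saa3 is the form made mostly outside the liver, in macrophages, adipocytes and epithelial cells, and its human counterpart is a pseudogene. Transcription of these genes is induced through C/EBP, NF-kB and STAT3 by interleukin-1, interleukin-6 and related cytokines, and in the mouse intestine interleukin-22 induces epithelial serum amyloid A, which in turn promotes Th17 cells.

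The recovered reads per library numbered 6395768 and 4494666 in DSS plus montmorillonite, 21481594 and 15212981 in DSS, and 8936826 and 3741494 in water, so the deepest library held 5.74 times the reads of the shallowest. All 7 general epithelial genes and all 7 surface colonocyte genes searched for had reads in every library, as the label of colon requires. The DSS plus montmorillonite libraries stood apart from each other. On log2 values, replicate 1 correlated with the water libraries at r = 0.95 and 0.94 and with the DSS libraries at 0.846 and 0.761, whereas replicate 2 correlated with the DSS libraries at 0.918 and 0.937 and with the water libraries at 0.801 and 0.813. The 6 stratified squamous genes, which the colonic lining lacks, summed to values of 106 and 7070 in DSS plus montmorillonite, 158 and 39432 in DSS, and 20.2 and 439 in water. The 5 skeletal muscle genes summed to 3206 and 131 in DSS plus montmorillonite, 90.1 and 2638 in DSS, and 509 and 271 in water. Both sums differed by over 10 times between the libraries of DSS plus montmorillonite and between those of DSS, as did the squamous sum between those of water, and the part of such tissue in the results was not tested.

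The genes lie on mouse chromosome 7 within 42316 bases (chr7:46711998-46754313, GRCm38). Saa3 (ENSMUSG00000040026.8) spans chr7:46711998-46715700 on the minus strand, Saa1 (ENSMUSG00000074115.5) chr7:46740497-46742980 on the minus strand, and Saa2 (ENSMUSG00000057465.5) chr7:46751790-46754313 on the plus strand, so that Saa1 and Saa2 face away from each other. Saa4 lies between Saa3 and Saa1. The promoters are shown because the levels of Saa1 and Saa2 ran the same way and those of Saa3 did not. Saa2 rested, however, on 2 to 15 reads per library, and whether these include reads of Saa1 was not tested. Each promoter is the RefSeq stretch of 300 bases (GRCm38.p6) from 250 bases before the transcription start to 50 after it. It is printed 5′ to 3′ on the strand of its gene. Capitals mark matches to TTGCNNAA, a core of sites for C/EBP factors, and to GGGNNNNNCC, a core of sites for NF-kB, each searched on both strands. No 2 matches overlapped.
Saa1, chr7:46742931-46743230, minus strand: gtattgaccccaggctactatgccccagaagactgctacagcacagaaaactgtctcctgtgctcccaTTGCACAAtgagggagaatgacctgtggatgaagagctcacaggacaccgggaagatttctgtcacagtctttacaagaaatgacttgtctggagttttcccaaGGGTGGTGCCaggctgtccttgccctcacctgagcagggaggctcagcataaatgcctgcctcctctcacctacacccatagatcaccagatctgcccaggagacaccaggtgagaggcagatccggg
Saa2, chr7:46751583-46751882, plus strand: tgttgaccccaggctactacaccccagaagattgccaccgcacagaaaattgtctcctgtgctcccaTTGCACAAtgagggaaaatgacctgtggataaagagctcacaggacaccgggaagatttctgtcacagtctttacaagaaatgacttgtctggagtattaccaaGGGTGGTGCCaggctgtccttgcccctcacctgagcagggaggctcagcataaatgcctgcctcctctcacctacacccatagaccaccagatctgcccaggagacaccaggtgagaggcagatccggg
Saa3, chr7:46715627-46715926, minus strand: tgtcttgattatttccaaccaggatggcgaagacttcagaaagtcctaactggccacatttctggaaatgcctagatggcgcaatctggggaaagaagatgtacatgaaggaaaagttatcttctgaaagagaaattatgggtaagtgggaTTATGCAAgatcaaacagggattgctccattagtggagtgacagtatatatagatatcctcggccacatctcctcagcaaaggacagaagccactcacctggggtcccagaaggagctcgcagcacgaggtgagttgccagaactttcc
The Saa1 and Saa2 promoters were identical at 287 of 299 aligned bases (96.0%), and each held the letters TTGCACAA and GGGTGGTGCC. With the transcription start counted as 0, these began at -182 and -78 in Saa1 and at -183 and -79 in Saa2. The Saa3 promoter was 59.8% identical to that of Saa1 and 60.1% to that of Saa2. It held 1 C/EBP match on the opposite strand, from -99 to -92, and no match to the NF-kB letters. None of the 3 held TTCNNNGAA, a core of STAT sites. Among 32851 promoters of the same length, 10.8% held the C/EBP letters, 50.8% the NF-kB letters and 8.30% the STAT letters, so a match to the NF-kB letters was present in about as many promoters as not. These matches describe letters and do not show binding.

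Saa1 was, per kilobase, the most abundant of the 3 genes in water colon and was highest in mice given DSS plus montmorillonite. Its normalised read count, the deposited unit, was 11237 and 8163 in DSS plus montmorillonite, 4979 and 2627 in DSS, and 3011 and 3884 in water. Both DSS plus montmorillonite libraries lay above all the others, whereas 1 DSS library lay above and 1 below the water libraries. Its mean was 9700 ± 2174 in DSS plus montmorillonite, 3803 ± 1663 in DSS and 3448 ± 618 in water (SD, n = 2 each). These values rested on 7813 and 4493 reads in DSS plus montmorillonite, 14863 and 5481 in DSS, and 3137 and 1708 in water, so counting error is small beside the spread between libraries. Ranked by value per kilobase of merged exons among all genes, Saa1 was number 76 and 89 in DSS plus montmorillonite, 138 and 310 in DSS, and 349 and 256 in water. Merged exons came to 2478 bases for Saa1 and 2606 for Saa3, against 609 and 555 in the transcripts used below. Such ranks therefore depend on the length used.

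Saa1 averaged 1.49 higher on the log2 scale in DSS plus montmorillonite than in water (SE 0.28, a 2.80-fold difference on log2(value + 1)) and 1.40 higher than in DSS (SE 0.41, 2.65-fold). Each library of DSS plus montmorillonite exceeded each library of the other groups, by 2.10 to 3.73 times against water and by 1.64 to 4.28 times against DSS. Between DSS and water the difference was 0.08 (SE 0.33), well inside the spread between libraries. Its sign turned with a library left out: it was -0.38 without DSS replicate 1, 0.54 without DSS replicate 2, -0.10 without water replicate 1 and 0.26 without water replicate 2. Of all genes tested, 40.8% did not overlap between DSS plus montmorillonite and water, 21.5% in the direction of Saa1 and 19.2% in the other. Between DSS plus montmorillonite and DSS 39.9% did not overlap, 19.4% in that direction and 20.6% in the other.

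**Figure D1:**
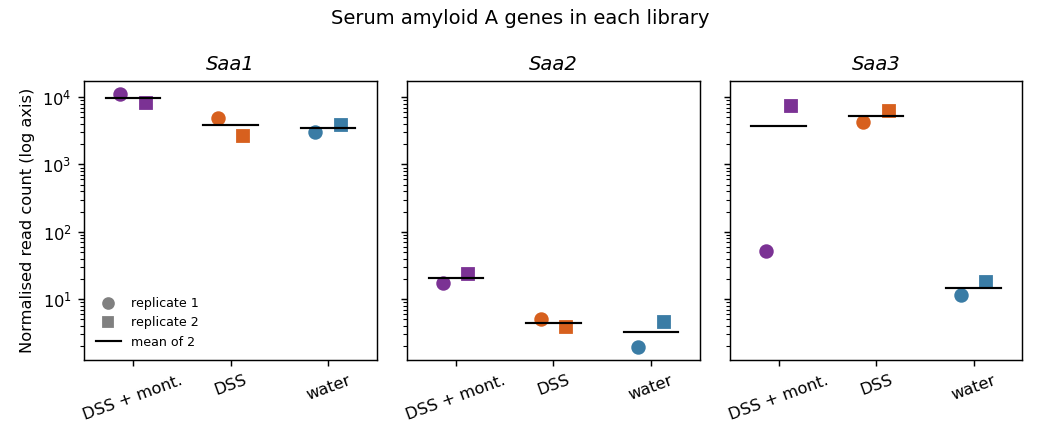
Normalised read count (log axis) of Saa1, Saa2 and Saa3 in each library, with circles for replicate 1, squares for replicate 2 and a line at the mean of 2. Saa1 and Saa2 are highest in both DSS plus montmorillonite libraries, whereas Saa3 is at 51.8 in one of these and 7480 in the other.

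Saa2, the near copy of Saa1, was barely detected but ran the same way. Its value was 17.3 and 23.6 in DSS plus montmorillonite, 5.03 and 3.84 in DSS, and 1.92 and 4.55 in water. The DSS plus montmorillonite libraries did not overlap with either other group, and the DSS and water libraries overlapped. Of all genes tested, 21.5% were higher without overlap in DSS plus montmorillonite than in water, and 19.4% than in DSS. Behind the Saa2 values stood 12 and 13 reads in DSS plus montmorillonite, 15 and 8 in DSS, and 2 and 2 in water. Pooled over libraries, the read ratio was 7.43 for DSS plus montmorillonite over water, with an exact 95% interval of 2.57 to 29.4 that covers counting error only. Over DSS the ratio was 4.43 (2.41 to 8.16), and for DSS over water it was 1.68 (0.574 to 6.68). These intervals leave out the spread between the 2 libraries of a group.

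Saa2 made up 0.153% and 0.289% of the reads of Saa1 and Saa2 together in DSS plus montmorillonite, 0.101% and 0.146% in DSS, and 0.0637% and 0.117% in water. The 95% Wilson intervals were 0.0877% to 0.268% and 0.169% to 0.493% in DSS plus montmorillonite, 0.0611% to 0.166% and 0.0739% to 0.287% in DSS, and 0.0175% to 0.232% and 0.0321% to 0.425% in water. Each water interval overlapped with both DSS intervals and with both DSS plus montmorillonite intervals, whereas that of DSS plus montmorillonite replicate 2 lay just above that of DSS replicate 1. The transcripts of these genes were 94.4% identical over 606 aligned bases. Of the 560 stretches of 50 bases in the Saa1 transcript, 74 (13.2%) also stood in that of Saa2, as did 25 of 535 (4.67%) at 75 bases and 0 of 510 at 100. How reads that match both genes were treated is not given in the sources used here, nor is read length, so the split between them is uncertain. Whether the Saa2 reads include reads of Saa1 was not tested, so the like course of Saa2 may not be a separate observation. Adding Saa2 to Saa1 raised the value by at most 0.289%. How many reads common to both were left out of either gene was not tested.

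Saa3 followed another course, with near absence in water and high levels in DSS. Its value was 51.8 and 7480 in DSS plus montmorillonite, 4253 and 6250 in DSS, and 11.5 and 18.2 in water. All DSS libraries lay above all water libraries, and the DSS plus montmorillonite libraries lay on either side of the DSS group, with 1 near water and 1 above both DSS libraries. The mean was 3766 ± 5253 in DSS plus montmorillonite, where the SD exceeded it, 5251 ± 1412 in DSS and 14.9 ± 4.72 in water (SD, n = 2 each). The reads behind these values were 36 and 4117 in DSS plus montmorillonite, 12696 and 13037 in DSS, and 12 and 8 in water. By value per kilobase of merged exons Saa3 was number 10360 and 104 among all genes in DSS plus montmorillonite, 178 and 111 in DSS, and 14647 and 13534 in water.

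Against water, Saa3 was 8.38 higher on the log2 scale in DSS (SE 0.30) and 5.34 higher in DSS plus montmorillonite (SE 2.39). Against DSS it differed in DSS plus montmorillonite by -3.04 (SE 2.30). The comparison with water kept its direction without either clay-treated library but ran between 1.77 without DSS plus montmorillonite replicate 2 and 8.91 without replicate 1. That with DSS was -6.61 without replicate 2 and turned to 0.54 without replicate 1. No level of Saa3 for the clay-treated group as a whole can therefore be given from these libraries. In DSS against water 62.4% of all genes did not overlap, 33.9% in the direction of Saa3 and 28.5% in the other. The 3 comparisons share libraries, so their fold changes are not independent.

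**Figure D2:**
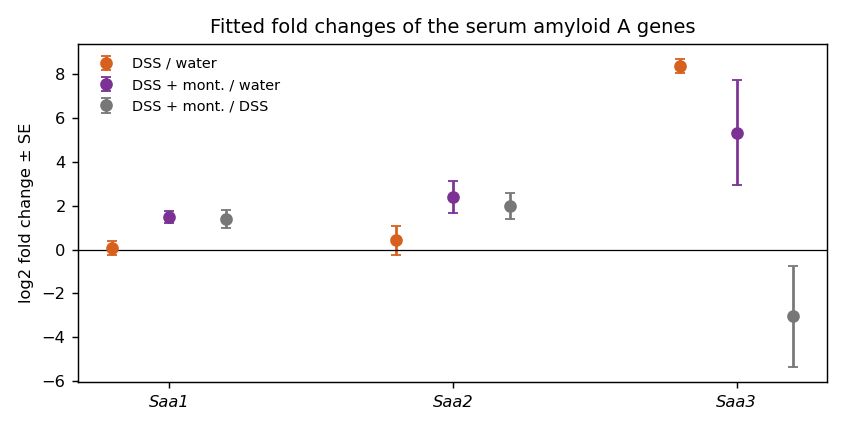
Log2 fold changes of the 3 genes, as mean ± SE from fits of 4 libraries on log2(value + 1), in DSS against water, DSS plus montmorillonite against water, and DSS plus montmorillonite against DSS. Saa3 is at 8.38 in DSS against water with a short bar and has long bars in both clay comparisons, whereas Saa1 and Saa2 are above 1 only where the clay-treated group is compared.

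The make-up of the family changed with these levels. Saa3 took 0.458% and 47.7% of the reads of the 3 genes in DSS plus montmorillonite, 46.0% and 70.4% in DSS, and 0.381% and 0.466% in water. The 95% Wilson intervals were 0.331% to 0.633% and 46.7% to 48.8% in DSS plus montmorillonite, 45.5% to 46.6% and 69.7% to 71.0% in DSS, and 0.218% to 0.665% and 0.236% to 0.916% in water, all far narrower than the differences between high and low libraries. Per kilobase of transcript the Saa3 level was 0.00506 and 1.01 times that of Saa1 in DSS plus montmorillonite, 0.937 and 2.61 times in DSS, and 0.00420 and 0.00514 times in water. Saa3 thus exceeded Saa1 in DSS replicate 2, was close to it in DSS replicate 1 and in DSS plus montmorillonite replicate 2, and was far below it in the other 3 libraries. Which gene led in DSS plus montmorillonite replicate 2 depended on the length used, since per kilobase of merged exons Saa3 ranked below Saa1 there, at number 104 against 89 of all genes. The summed value of all 3 genes was 11307 and 15667 in DSS plus montmorillonite, 9237 and 8881 in DSS, and 3024 and 3907 in water, with no overlap between any 2 groups. The DSS plus montmorillonite sums also differed in contents, almost all Saa1 in replicate 1 and close to equal parts of Saa1 and Saa3 in replicate 2. Of all single genes tested, 33.9% were higher without overlap in DSS than in water. In DSS plus montmorillonite 21.5% were higher without overlap than in water, and 19.4% than in DSS. The sums are made of the values by which the members were chosen, so nothing is read from their lack of overlap.

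In bulk tissue, fewer cells of a type and less RNA per cell cannot be told apart. The 7 general epithelial genes summed to 153121 and 80787 in DSS plus montmorillonite, 60587 and 40523 in DSS, and 142246 and 148534 in water. All 7 fell in DSS against water (limma, Benjamini-Hochberg adjusted p under the threshold of 0.05), beside 7.18% of all genes tested. Set against this sum, a ratio added after the values had been seen, Saa1 stood at 73.4 and 101 per 1000 in DSS plus montmorillonite, 82.2 and 64.8 in DSS, and 21.2 and 26.2 in water. On this scale DSS no longer overlapped with water and did overlap with DSS plus montmorillonite. Since the divisor fell in DSS, most genes separate this way: 84.9% of all genes tested were higher without overlap in DSS than in water on this scale and 2.9% were lower, so the separation of Saa1 is no more than the background. Relative to the water mean, the ratio was 3.10 and 4.27 in DSS plus montmorillonite, 3.47 and 2.74 in DSS, and 0.895 and 1.11 in water. Whether Saa1 reads came from epithelial cells was not tested. Of 6 hepatocyte genes, 2 (Alb and Apoh) had values, which summed to no more than 8.63 in any library, so the defining liver markers were at or near 0.

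**Figure D3:**
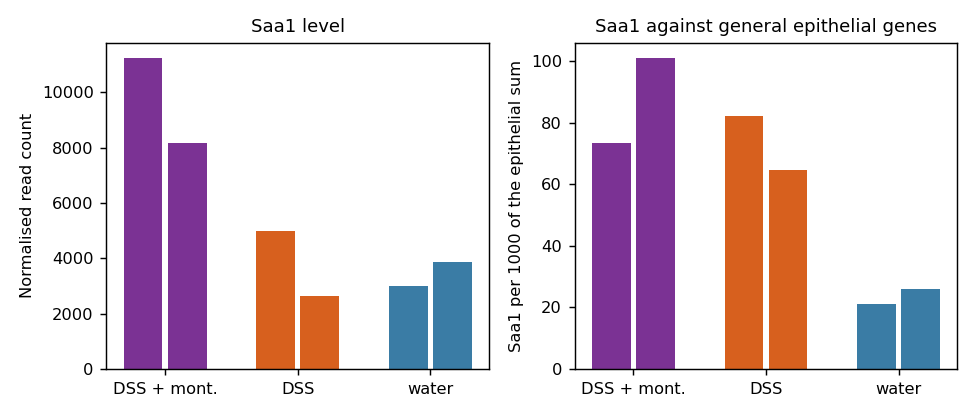
Saa1 in each library as normalised read count (left) and per 1000 of the summed value of 7 general epithelial genes (right), with bars for replicates 1 and 2 of each group. On the left the DSS bars, 4979 and 2627, straddle the water bars, and on the right they stand at 82.2 and 64.8 against 21.2 and 26.2 in water.

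Summed levels of several myeloid and stromal marker lists ran in the same direction as Saa3. The 9 neutrophil genes summed to 197 and 9379 in DSS plus montmorillonite, 3314 and 14318 in DSS, and 51.8 and 88.7 in water, and 2 and 5 of the 9 had a read in the water libraries. Of these genes 6 rose in DSS against water (limma, adjusted p under 0.05) and 3 did not pass. Over all genes tested 7.9% rose, the share to set beside this count and those of the lists that follow. The 8 macrophage genes summed to 3963 and 9557 in DSS plus montmorillonite, 9205 and 8019 in DSS, and 4560 and 3834 in water, with all 8 present in each library. Lyz2, which other myeloid cells also express, made up much of that sum, at 1743 and 4252 in DSS plus montmorillonite, 6327 and 4393 in DSS, and 2216 and 1888 in water. Lyz2, Cd68 and Fcgr1 rose in DSS against water (limma, adjusted p under 0.05) and the other 5 did not pass. Among these, Adgre1, a macrophage surface receptor, was at 200 and 269 in DSS plus montmorillonite, 207 and 203 in DSS, and 190.0 and 125 in water, and Cx3cr1, the fractalkine receptor, was at 127 and 81.8 in DSS plus montmorillonite, 126 and 67.1 in DSS, and 155 and 136 in water. The 5 fibroblast genes summed to 6165 and 22041 in DSS plus montmorillonite, 24696 and 36812 in DSS, and 5508 and 6777 in water, with all 5 present, of which 3 rose in DSS against water. Of 7 adipocyte genes 4 had values, and these summed to 348 and 1159 in DSS plus montmorillonite, 994 and 1004 in DSS, and 258 and 282 in water. Adipoq, Lep and Plin1, which define adipocytes, had no row in the table used here. In the sum of each of these lists replicate 1 of DSS plus montmorillonite was below both DSS libraries, as Saa3 was. Gene by gene this held for 7 of 9 neutrophil, 7 of 8 macrophage, 5 of 5 fibroblast and 2 of 4 adipocyte genes, beside 42.9% of all genes tested. On log2 values that replicate correlated more closely with the water libraries than with the DSS libraries. The part of the cells of these lists in the Saa3 level was not tested.

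The genes whose profile over the 6 libraries lay nearest to each member were found by the root mean square difference of centred log2 values, among 13914 genes whose mean value reached 20. For Saa1 the nearest were Tmem139 (0.134), Foxd2 (0.216), Camk2n1 (0.279), Sytl2 (0.281) and Cacna1b (0.288). Saa2, whose own mean value was below 20, would stand at number 168 for Saa1. Tmem139, a transmembrane protein gene, was at 265 and 160 in DSS plus montmorillonite, 109 and 62.8 in DSS, and 76.8 and 97.8 in water. For Saa2 they were Cpn2 (0.341), Dmbt1 (0.387), A330023F24Rik (0.415), Gm15657 (0.446) and Saa1 itself (0.514). Dmbt1 encodes a mucosal glycoprotein that binds bacteria, and its value was 85519 and 84744 in DSS plus montmorillonite, 33909 and 29510 in DSS, and 23546 and 24566 in water.

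For Saa3 the nearest was Mmp3, the matrix metalloproteinase stromelysin, at 0.159. Mmp3 was at 54.7 and 6499 in DSS plus montmorillonite, 3922 and 7512 in DSS, and 11.5 and 20.5 in water. It was thus close to Saa3 in normalised read count, which is not corrected for gene length, as well as in profile. Lcn2, the iron-siderophore-binding lipocalin (0.516), Hp, the haemoglobin-binding haptoglobin (0.551), Serpina3m, a serine protease inhibitor (0.576), and Chil1, a chitinase-like protein (0.777), came next. Saa1 and Saa2 differed from Saa3 by 4.06 and 3.82 on this measure, against 0.514 between them. The measure grows with the range of a gene over the libraries. Counted from Saa3, Saa1 stood at number 7086 of the 13914 genes and Saa2 would stand at number 3713. Counted from Saa1 and from Saa2, Saa3 stood at number 13903 and 13904. With 6 libraries of 3 groups such likeness is a description.

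None of the 8 flanking genes passed the test in any comparison (limma, adjusted p at least 0.180), beside 15.1% of all genes in DSS against water and 0.0% in each clay comparison, so nothing is read from this count of 8. Saa4, the constitutive form, had 4 and 4 reads in DSS plus montmorillonite, 8 and 14 in DSS, and 4 and 0 in water, too few to compare. Of the 4 genes on the Saa3 side, Tph1, the serotonin-synthesis enzyme of enterochromaffin cells, was at 204 and 109 in DSS plus montmorillonite, 154 and 59.4 in DSS, and 60.5 and 31.8 in water. Saal1, next to Saa3, lay between 96.3 and 134 in all 6 libraries. On the Saa2 side Hps5, a lysosome biogenesis gene, was at 1001 and 718 in DSS plus montmorillonite, 465 and 413 in DSS, and 580 and 573 in water. Gtf2h1, a subunit of the general transcription factor TFIIH, lay between 378 and 475. Sergef, Gm45629, Gm45309 and Gm9392 make up the remaining flanking genes, and their values ranged from 1.92 to 49.1.

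**Figure D4:**
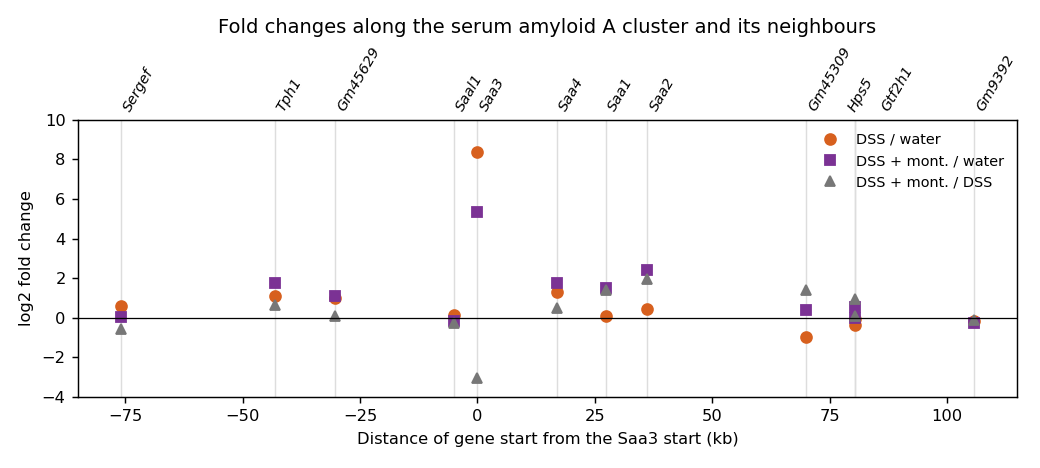
Log2 fold change of each gene of the cluster and of 4 genes on either side, by the distance of its transcription start from that of Saa3 in kilobases, for the 3 comparisons. Saa3 reaches 8.38 in DSS against water, while Tph1, the flanking gene with the largest fold change, reaches 1.74 in DSS plus montmorillonite against water.

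The genes that induce, accompany or respond to serum amyloid A were examined in 5 lists, by limma on log2(value + 1) with a Benjamini-Hochberg adjusted p under 0.05 over all 20307 genes tested. In DSS against water 3064 genes passed (15.1%), 1605 higher and 1459 lower (7.9% and 7.18%). After scaling to equal library size the split became 2199 higher and 893 lower, and the median difference over all genes was 0.33 in place of 0.10. These calls depend on every library: 0 genes passed without DSS replicate 1 or without DSS replicate 2, 288 without water replicate 1 and 317 without water replicate 2. A fit that shared the spread of all 6 libraries called 0, with 4662 at an unadjusted p under 0.05, while edgeR and DESeq2 on recovered reads called 2993 and 4012. No gene passed in DSS plus montmorillonite against water or against DSS (0.0% in each). There 1576 and 1444 genes had an unadjusted p under 0.05, edgeR called 0 in each, and DESeq2 called 202 and 68.

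Most of the inducing cytokines passed in DSS colon. Of the 11, 7 rose in DSS against water, none fell and 4 did not pass, with a median log2 fold change of 3.22 against 0.10 over all genes. Il1b, which encodes interleukin-1 beta, was at 90.6 and 901 in DSS plus montmorillonite, 1165 and 1165 in DSS, and 30.7 and 40.9 in water, and it rose 32.0-fold in DSS (log2 SE 0.23, limma adjusted p = 0.00148). Il11, a cytokine of the interleukin-6 family, was at 1.44 and 231 in DSS plus montmorillonite, 651 and 1443 in DSS, and 2.88 and 2.27 in water, and rose in DSS by 8.09 (SE 0.47, limma adjusted p = 0.00230). Il6 was at 1.44 and 205 in DSS plus montmorillonite, 78.7 and 338 in DSS, and 0.960 and 0 in water, where 1 read was found, and it passed too (limma adjusted p = 0.00904).

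Osm, encoding oncostatin M, rose by 4.98 in DSS (SE 0.66, limma adjusted p = 0.0109). Il22 and Il17a, the cytokines linked to intestinal serum amyloid A, were scarce. Il22 was at 0 and 19.99 in DSS plus montmorillonite, 6.37 and 6.71 in DSS, and 0 and 0 in water, and Il17a was at 1.44 and 18.2 in DSS plus montmorillonite, 5.03 and 13.4 in DSS, and 0 and 0 in water. Both passed in DSS against water (limma adjusted p = 0.0319 and 0.0359), on 44 reads for Il22 and 54 for Il17a over all 6 libraries. On recovered reads edgeR and DESeq2 called 5 of the 11 cytokines each, against 7 by limma. Tnf, encoding tumour necrosis factor, was at 69.0 and 158 in DSS plus montmorillonite, 114 and 61.8 in DSS, and 41.3 and 20.5 in water, and did not pass (limma adjusted p = 0.103). Ifng, encoding interferon gamma, was at 2.88 and 0 in DSS plus montmorillonite, 2.68 and 1.44 in DSS, and 10.6 and 11.4 in water, and did not pass either. Replicate 1 of DSS plus montmorillonite was below both DSS libraries for 7 of the 11 cytokines, as for Saa3, beside 42.9% of all genes. Tnf, Lif, Il17f and Ifng were not below both. On log2 values that replicate correlated more closely with the water libraries than with the DSS libraries. Saa1 was highest in the same replicate, and whether Saa1 follows these cytokines was not tested. The neutrophil, macrophage and fibroblast sums given beside Saa3 were also higher in both DSS libraries than in water, and their part was not tested.

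Among 24 receptors and transcription factors of these pathways, 9 rose in DSS against water, 1 fell and 14 did not pass, with a median of 0.92. Socs3, the feedback inhibitor that STAT3 induces, rose by 3.96 (SE 0.46, limma adjusted p = 0.00861), and Osmr, the oncostatin M receptor, by 3.47 (SE 0.31, limma adjusted p = 0.00557). Il1r1, the interleukin-1 receptor, rose by 3.44, and Cebpb, a C/EBP factor, by 2.89 (limma adjusted p = 0.00607 and 0.00939). The gene that fell was Il17rc, a receptor subunit for interleukin-17, at 1513 and 761 in DSS plus montmorillonite, 473 and 542 in DSS, and 2051 and 2047 in water (-2.01, SE 0.16, limma adjusted p = 0.00480).
Stat3, Cebpd, Nfkbiz and Il22ra1 did not pass, at 0.96, 1.11, 0.16 and -0.99 (limma adjusted p = 0.0685, 0.175, 0.684 and 0.107). Il22ra1, the epithelial subunit of the interleukin-22 receptor, was at 500.5 and 380 in DSS plus montmorillonite, 275 and 139 in DSS, and 394 and 387 in water. The epithelial sums given beside Saa1 ran the same way between DSS and water, and their part was not tested.

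Of 24 other acute-phase proteins 19 were tested, and 10 of them rose in DSS, none fell and 9 did not pass, with a median of 2.81. Lcn2 was at 40.3 and 3392 in DSS plus montmorillonite, 1172 and 1950 in DSS, and 3.84 and 4.55 in water, and rose by 8.19 in DSS (SE 0.35, limma adjusted p = 0.00137). Hp rose by 7.72 (SE 0.45) and Cp, the copper-carrying ferroxidase ceruloplasmin, by 4.07 (SE 0.23, limma adjusted p = 0.00230 for each). The neutrophil sums given above moved with this list, and their part was not tested. Of the liver-made proteins on the list, Fga, Fgb, Apcs and Crp had no row in the table used here, and Fgg was removed by the filter on low values. Not all such genes were absent. Orm1 was at 1.68 and 17.7 in DSS and Orm2 at 6.37 and 10.1, against 0 and 0 in water for each. Itih3 was at 28.8 and 61.4 in DSS against 4.80 and 6.82 in water, and Itih4 at 5.03 and 11.5 against 0.960 and 2.27.

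Of 19 receptors and lipoprotein partners of serum amyloid A 17 were tested. In DSS 7 rose, none fell and 10 did not pass, with a median of 1.0. Fpr2, the formyl peptide receptor through which serum amyloid A attracts leukocytes, was at 7.19 and 169 in DSS plus montmorillonite, 97.8 and 118 in DSS, and 2.88 and 2.27 in water, and rose by 4.93 (SE 0.47, limma adjusted p = 0.00618). Abca1, the cholesterol exporter that builds high-density lipoprotein, rose by 2.20 (SE 0.23, limma adjusted p = 0.00708). Scarb2, a lysosomal scavenger receptor, rose by 1.05 (SE 0.16, limma adjusted p = 0.0149). The neutrophil and macrophage sums also moved with this list, and their part was not tested.

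Among 11 genes of Th17 cells and group 3 innate lymphoid cells, which include Il22 and Il17a again, 3 rose in DSS, with a list median of 0.75. Ccr6, the chemokine receptor of these cells, was at 5.75 and 25.4 in DSS plus montmorillonite, 104 and 59.0 in DSS, and 9.60 and 2.27 in water, and rose by 3.75 (SE 0.70, limma adjusted p = 0.0239).

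In DSS plus montmorillonite none of the genes of the 5 lists passed against water or against DSS. Against water the medians, in the order in which the lists were given, were 2.20, 0.52, 1.86, 0.67 and 0.41, beside 0.06 over all genes. Against DSS they were -0.79, -0.39, -0.99, -0.31 and -0.45, beside -0.07 over all genes. Without DSS plus montmorillonite replicate 2 the comparison with DSS called 285 genes, and without replicate 1 it called 0.

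**Figure D5:**
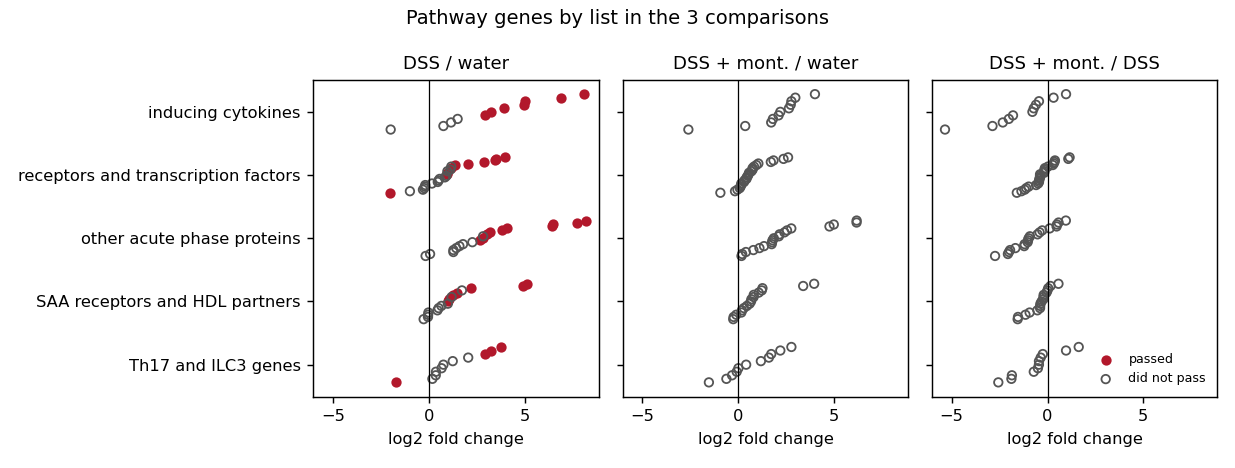
Log2 fold change of each tested gene of 5 lists in the 3 comparisons, with filled points for genes that passed (limma, adjusted p under 0.05) and open points for those that did not. Filled points appear only in DSS against water, where 7 of 11 inducing cytokines and 10 of 19 other acute-phase proteins rose.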

How the data were processed

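The deposited signal was 1 normalised value per gene and library, and per the submitters' processing notes the genome build was mm10 (GRCm38). The sources used here name no aligner, counter, strandedness or read length (not given). In each library the values were whole multiples of the smallest, and the divisors equalled DESeq2 median-of-ratios size factors, so whole reads could be recovered by the authors' factor. Every gene had at least 10 reads over the 6 libraries.

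Symbols and positions came from GENCODE M21, in which 20500 of 20533 identifiers matched without version. Fits used limma's trend method (3.58.1, R 4.3.3) on the 4 libraries compared, after log2(value + 1), for the 20307 genes whose mean value reached 1 (226 fell short). They were two-sided, with 2 residual and 3.92, 2.56 and 2.91 prior degrees of freedom for DSS against water, DSS plus montmorillonite against water and DSS plus montmorillonite against DSS. A count test had been planned where the files held counts. Alternatives were edgeR 4.0.16 and DESeq2 1.42.0 on recovered reads, other pseudocounts, no filter, equal library size, a fit of 6 libraries, a replicate block and each library left out. The code was tested on simulated data. An exact permutation test of 2 against 2 libraries cannot go below p = 0.333. Intervals are Wilson or exact, at 95%, and cover counting error only. Identities came from pairwise alignment (Biopython 1.88).

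The members and gene lists were chosen with earlier results of these data known. Genes named besides the 3 members were Saa4, 15 genes fixed by name, the 3 genes of each list with the smallest p in each direction among those that passed in DSS against water, the 5 nearest profiles per member and the 4 genes on either side. Others, such as Ifng, were chosen after their values were seen. A gene that this rule takes is not reported here.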

Additional observations from a re-analysis of the deposited data

How the results depend on the processing

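Saa1 and Saa2 did not overlap between DSS plus montmorillonite and the other groups, nor Saa3 between DSS and water, so a kept direction there is no sign of stability. With each library left out in turn, Saa1 ran from 1.25 to 1.72 against water and 0.94 to 1.87 against DSS, Saa2 from 1.93 to 2.86 and 1.76 to 2.19, and Saa3 in DSS against water from 8.07 to 8.69. A pseudocount of 5 lowered Saa2 to 1.63 against water and 1.42 against DSS. Saa2 in DSS against water ran from -0.04 to 0.89. With edgeR and DESeq2 Saa3 was 8.02 and 8.0 for DSS plus montmorillonite against water, and -0.52 and -0.49 against DSS, where limma gave 5.34 and -3.04. Limma averages the log2 values of a group, whereas edgeR and DESeq2 fit group means of reads. The plain ratio of mean Saa3 values was 253 against water and 0.717 against DSS.

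In DSS against water the count of genes called was 0 in the fit of 6 libraries, 5084 with a replicate block and 0 to 317 with a library left out. For the inducing cytokines, receptors and transcription factors, other acute-phase proteins, serum amyloid A receptors and Th17 genes it was 0 in the fit of 6 and 0 to 4, 0 to 3, 0 to 6, 0 to 2 and 0 to 1 with a library left out. The replicate block called 17 receptors and transcription factors, and edgeR and DESeq2 called 2 Th17 genes each. For DSS plus montmorillonite against water DESeq2 called 202 genes, with 1, 2, 4 and 1 in the first 4 lists. Against DSS it called 68, and leaving out a library gave 0 to 285 genes, with 0 to 2, 0 to 1, 0 to 5 and 0 to 1 in those lists. Same-numbered libraries deviated together (r = 0.196 for DSS and water, 0.160 for DSS plus montmorillonite and water, 0.409 for DSS plus montmorillonite and DSS), but 2 pairs do not show that the numbers pair the libraries. A fold change or level was counted as moved when it shifted by at least the SD between replicates. For Saa3 that SD was 3.59 in DSS plus montmorillonite against water and 3.58 against DSS. Counts of genes were taken as unmoved if they stayed at 0 or changed by a small factor. By this rule 204 values did not move and 18 did, those with a library left out not counted, so the tally is no sign of stability. Groups of 2 libraries limit all p-values, and with a library left out the lone library is assumed to vary like the others.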
